A study of Mus musculus with 8 samples.

Results

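MicroRNA-21 (miR-21) was measured by real-time PCR in mouse renal artery cells sorted as CD34+/CD105-, with the assay mmu-miR-21. This was 1 of 750 miRNA assays, taken by its name without the catalogue number and without the # mark of passenger strands, and it gave a threshold cycle (Ct) in all 8 mice. The Ct is the PCR cycle at which the signal crosses a threshold, so a lower Ct means more RNA. CD34 marks endothelial and progenitor cells on their surface, and CD105 (endoglin) is carried by endothelium and mesenchymal stroma. The sham group held 4 mice after sham surgery. The ischemia/reperfusion group held 4 mice in which both renal arteries were clamped and the blood flow then restored. The labels number the mice within each group and name no strain, age, duration of ischemia or time of sampling. The comparison addresses how the injury relates to the miRNA content of the sorted cells.

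miR-21 is one of the more abundant miRNAs of mammalian tissues and is known to rise in injured and inflamed organs, where STAT3 and AP-1 drive its transcription. It represses targets such as Pdcd4 and Spry1, and in the kidney it has been studied both for its part in fibrosis and for protection of cells after ischemia. As with other miRNAs, target choice rests mainly on the seed, bases 2 to 8 of the mature strand.

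The mouse gene, Mir21a, lies within the annotated span of Vmp1, the gene of an autophagy protein. The RefSeq hairpin (GRCm38.p6, chr11:86584067-86584158, minus strand) is shown with its 5p and 3p arms in capitals, to place the strand the assay is named for and its partner.
Mir21a hairpin: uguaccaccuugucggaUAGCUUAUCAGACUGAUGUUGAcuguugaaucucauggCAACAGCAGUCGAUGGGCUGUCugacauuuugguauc

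The mature strands are shown next with the seed in capitals, because related sequences bear on what a miR-21 signal could contain. The name mmu-miR-21 was matched through the RefSeq synonym of Mir21a, and the assay without a # mark was taken as the 5p strand (chr11:86584120-86584141, minus strand). RefSeq sequences of 4 strands follow.
mmu-miR-21a-5p: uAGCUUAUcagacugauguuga
mmu-miR-21c: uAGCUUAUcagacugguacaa
mmu-miR-21b: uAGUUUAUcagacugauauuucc
mmu-miR-21a-3p: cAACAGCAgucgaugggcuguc

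Of the 1679 mature mouse miRNA names in the RefSeq table, 2 had the miR-21 seed, miR-21a-5p and miR-21c. Counted from the 5′ end, miR-21c differed from miR-21a-5p by A16G, G18A, U19C, U20A and G21A over 21 shared positions. miR-21b was identical at 18 of 22 positions and differed within the seed by C4U. The sources used here do not give the primer sequences of the assay, and whether it also reads miR-21b or miR-21c was not tested. The passenger strand assay mmu-miR-21# had a Ct in 0 of 8 mice, as did mmu-miR-590-5p, whose name matched no entry of the table.

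The Ct of miR-21 was 30.3, 35.9, 25.1 and 24.5 in sham mice 1 to 4. It was 29.7, 32.6, 36.5 and 34.1 in ischemia/reperfusion mice 1 to 4. Sham mice 3 and 4 had the lowest Ct of all mice, while sham mouse 2 lay among the ischemia/reperfusion mice, so the groups overlapped. Sham mouse 2 and ischemia/reperfusion mouse 3 were at Ct 35 or more, a region in which a few starting molecules decide the value, and miR-21 counted as detected below Ct 35 in 3 of 4 mice of each group. The sham mean was Ct 29.0 ± 5.27 (SD, n = 4), and the mean of the injured group was Ct 33.2 ± 2.85 (SD, n = 4). The difference of 4.29 cycles fell short of significance (p = 0.200 by exact two-sided permutation, where 4 against 4 mice can reach 0.0286 at best).

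The authors' delta Ct is the Ct minus a reference value per mouse and card, a card being a plate with a fixed set of assays. The reference Ct of the miR-21 card in sham mice 1 to 4 was 20.7, 22.4, 19.0 and 17.9, and for ischemia/reperfusion mice 1 to 4 it was 21.02, 22.4, 20.5 and 21.7. Sham mice 3 and 4 thus also had the lowest reference Ct. In minus delta Ct, where 1 unit is a doubling of RNA if the PCR is fully efficient, miR-21 was at -9.63, -13.41, -6.15 and -6.59 in sham mice 1 to 4. After ischemia/reperfusion it was at -8.71, -10.21, -16.02 and -12.43 in mice 1 to 4. Subtracting the reference kept sham mice 3 and 4 on top, and as in raw Ct, ischemia/reperfusion mouse 1 came next and only ischemia/reperfusion mouse 3 was below sham mouse 2.

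**Figure D1:**
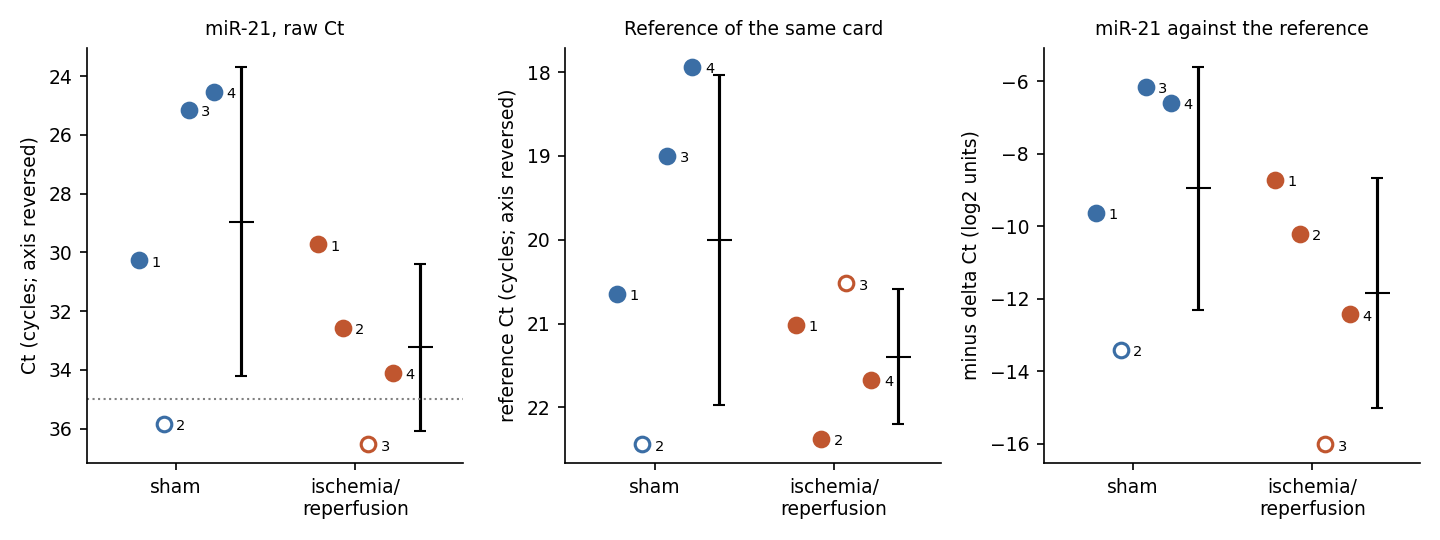
miR-21 in the 8 mice: Ct (left) and reference Ct of its card (middle), both in cycles on a reversed axis, and minus delta Ct in log2 units (right). Points are mice with their number, open where miR-21 was at Ct 35 or more, bars are mean ± SD (n = 4) and the dotted line is Ct 35; in Ct and minus delta Ct, sham mice 3 and 4 are highest and the other sham mice lie within the range of the ischemia/reperfusion mice.

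Over all 8 values, minus delta Ct had a sham mean of -8.95 ± 3.36 (SD, n = 4) and a mean of -11.84 ± 3.17 (SD, n = 4) in the injured mice. The difference was -2.90 log2 units, which is the fold of 0.134 that the authors' deposited table gives for miR-21. The exact two-sided permutation p was 0.286. The sham mice spanned 7.26 log2 units among themselves and the ischemia/reperfusion mice 7.30, which corresponds to 154-fold and 158-fold in RNA. The distance between the group means was thus smaller than the range within either group. Of the 98 assays with at least 3 Ct values in each group, 9 had a larger SD within groups than miR-21, whose pooled SD was 3.27 beside a median of 1.40. This spread includes the 2 miR-21 wells at Ct 35 or more. Without them the SD was 1.89 in sham and 1.87 after ischemia/reperfusion (n = 3 each), beside an upper quartile of 1.98 over the 98 assays with every Ct kept.

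In the limma fit across all miRNAs detected below Ct 35 in at least 3 mice of each group, miR-21 entered with 3 sham and 3 ischemia/reperfusion values, since the wells of sham mouse 2 and ischemia/reperfusion mouse 3 were left out. The means were then -7.46 ± 1.89 and -10.45 ± 1.87 (SD), and the groups still overlapped, ischemia/reperfusion mouse 1 lying above sham mouse 1. The log2 difference of -2.99 ± 1.33 (SE) had a 95% interval from -6.16 to 0.17, and the limma adjusted p (Benjamini-Hochberg) was 0.362. None of the fitted miRNAs passed the adjusted threshold of 0.05 (0 of 72, 0%), while 10 of 72 (13.9%) had an unadjusted limma p under 0.05. When each miRNA was tested by exact permutation instead, the counts were 0 and 2. The smallest p it allows is 0.0286 for 4 against 4 mice and 0.1 for 3 against 3, as for miR-21, so a count of 0 after adjustment over 72 miRNAs says little. Every ischemia/reperfusion value lay below every sham value in 5 of 72 miRNAs (6.94%), and miR-21 was not among them. The unadjusted limma p of miR-21 was 0.0603, the twelfth smallest.

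By size, the difference of miR-21 was the fourth lowest of the 72. It followed rno-miR-664 (-3.54 ± 1.28) and preceded miR-26b (-2.98 ± 1.70, SE), a miRNA of the miR-26 family. The median over all 72 was -0.80, and 49 of 72 (68.1%) were below 0, so miR-21 lay 2.20 log2 units under the centre of the tested miRNAs. Relative to the centre of each setting it lay 2.74 lower with the mean of all always-detected miRNAs as reference, 2.46 lower against 2 control RNAs, and 3.55 lower without normalization. Those settings gave log2 differences of -2.98, -3.25 and -5.49 and an adjusted limma p of 0.391, 0.280 and 0.123, so miR-21 was lower under each of these references and passed under none. The count of lower miRNAs moved with the reference, from 49 of 72 to 41 with the mean reference, 53 against the control RNAs and 65 without normalization, and it was 40 when each mouse was centred on the median of the tested miRNAs.

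**Figure D2:**
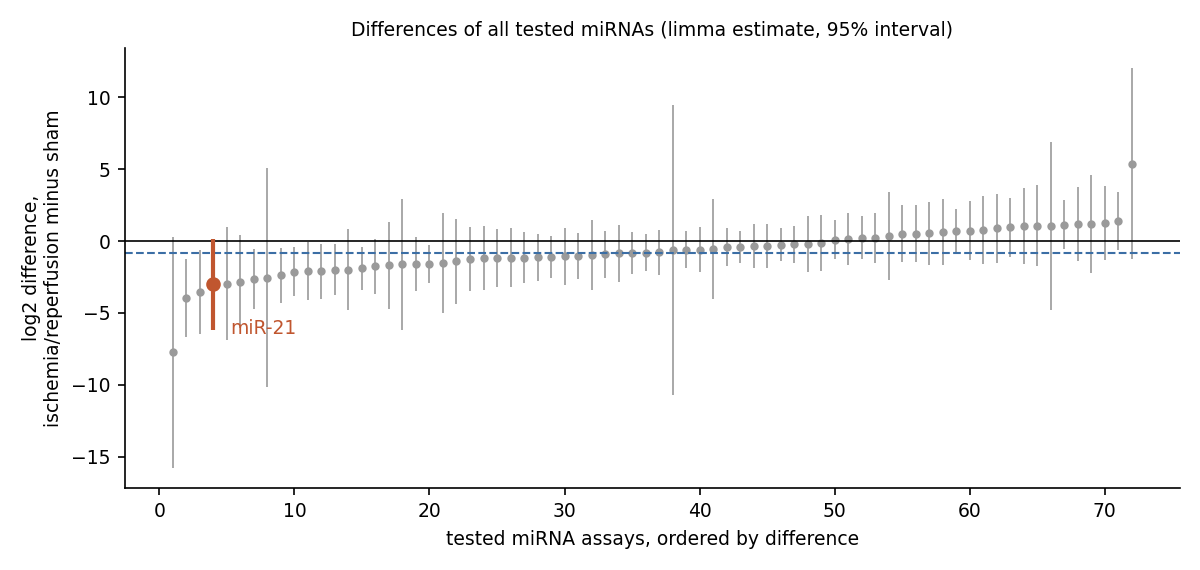
Log2 difference, ischemia/reperfusion minus sham, of the 72 tested miRNA assays in ascending order, with 95% intervals from the limma fit. miR-21 (orange) is the fourth lowest at -2.99 and its interval reaches 0.17; the dashed line is the median of -0.80.

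The size of the difference depended on single mice. Over all 8 values it ranged from -4.39 without sham mouse 2 to -1.50 without ischemia/reperfusion mouse 3 when each mouse was left out, and none of these exact permutation tests passed. In the limma fit the range was from -4.08 without sham mouse 1 to -2.01 without ischemia/reperfusion mouse 4. Without sham mice 3 and 4 together, the difference over the other 6 mice was -0.32. Both are the highest miR-21 values of the study, so leaving them out lowers the difference by construction, and the value shows how much of it they carry. In the order of the 42 miRNA assays of the card that had a Ct in all mice, miR-21 had the 14th and 17th lowest Ct in sham mice 3 and 4. It was at position 36 and 40 in sham mice 1 and 2, and between 26 and 41 after ischemia/reperfusion.

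Sham mice 3 and 4, with the highest miR-21, also stood out in other measures of the samples. The number of miRNAs detected below Ct 35 was 142 and 163 in sham mice 3 and 4, 127 and 75 in sham mice 1 and 2, and 82 to 98 after ischemia/reperfusion. Over the 8 mice the Ct of miR-21 correlated with the reference Ct (Pearson r = 0.81, permutation p = 0.0154, adjusted over 2 relations 0.0307; Spearman rho = 0.60, permutation p = 0.132, adjusted 0.151). Sham mice 3 and 4 were the farthest from the median reference Ct, and without them r was 0.25 (permutation p = 0.574). Leaving out mice for that distance narrows the range of the reference Ct, which by itself tends to weaken r. With 6 mice left, such a test also has little power. Within the sham group r was 0.98 and within the ischemia/reperfusion group -0.29, each of only 4 mice and given as a description. After the reference was subtracted, the relation of minus delta Ct to the reference Ct did not pass the threshold (r = -0.62, permutation p = 0.104, adjusted 0.104; rho = -0.57, permutation p = 0.151, adjusted 0.151). Without sham mice 3 and 4 its r was 0.05 (permutation p = 0.928), with the same limits. The part of RNA input in the miR-21 difference was not tested.

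Markers of cell types were read from the same cards, on which 187 of 750 miRNA assays were detected in at least 1 mouse. Endothelial miRNAs were present, with 7 of 7 assays detected in at least 1 mouse, among them miR-126-3p, the best known miRNA of endothelium, in all 8. Their summed level, with the reference set to 1000, was 173, 262, 122 and 113 in sham mice 1 to 4, while the injured mice had 45.2, 101, 47.1 and 73.0. All injured mice thus lay below all sham mice in this sum, and sham mouse 2, the lowest sham mouse for miR-21, had the highest. Among single miRNAs of the fit, every ischemia/reperfusion value lay below every sham value in 5 of 72 (6.94%). Of the 5 endothelial assays in the fit, 4 were lower after ischemia/reperfusion, beside 49 of 72 (68.1%) over all miRNAs. The other, miR-126-5p, had a log2 difference of 0.11. The adjusted threshold was passed by 0 of the 5, as by 0 of all 72. Of the kidney tubule and epithelial assays, 4 of 13 were detected, and miR-141, miR-205, miR-215, miR-429 and the assays of miR-200a, miR-200b and miR-200c had no Ct in any mouse. The tubule miRNA miR-194 was detected in sham mice 3 and 4 alone, at Ct 20.5 and 23.7, which are the mice with the highest miR-21. The summed level of the tubule list, on the same scale, was 15.2, 0, 364 and 23.1 in sham mice 1 to 4, while the injured mice had 0, 92.3, 1.93 and 0. Ischemia/reperfusion mouse 3, with the lowest miR-21, had miR-203 and miR-204 at Ct 30.0 and 31.6 but no miR-194. In minus delta Ct these 2 miRNAs did not follow miR-21. They were highest in ischemia/reperfusion mouse 2, at -4.13 and -4.83, where miR-21 was at -10.21. Sham mice 1, 3 and 4 had -6.29, -8.57 and -8.22 for miR-203 and -8.65, -10.76 and -9.28 for miR-204. Of the mesenchymal assays, 6 of 7 were detected, with a summed level of 99.8, 16.5, 69.6 and 66.8 in sham mice 1 to 4 and between 21.4 and 37.9 in the injured mice, so that sham mouse 2 was the lowest of all. The mesenchymal sum counts miR-214 with both of its assays, which are on different cards with different reference values. Leukocyte assays were detected for 7 of 8, with a summed level from 7.69 to 37.1 in sham and from 5.89 to 71.1 after ischemia/reperfusion. Erythroid assays were detected for 0 of 3, and striated muscle assays for 2 of 5. The part of other cells in the miR-21 difference was not tested, and fewer cells of a type and less RNA per cell cannot be told apart in sorted bulk samples.

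The assays whose pattern over the 8 mice was most like that of miR-21 were sought among the 54 others detected in all mice, by Pearson correlation of minus delta Ct. The correlations are a description, with each mouse shared by all assays and its reference value by the assays of a card. The highest were miR-2134 (0.89), miR-199a-3p (0.75), hsa-miR-214 (0.70), miR-145 (0.68), miR-1937b (0.67) and hsa-miR-30a-3p (0.66), beside a median of 0.10 over the 54. Only miR-199a-3p and miR-145 of these were on the card of miR-21, and the others were on the other card. With the assays kept in this order, further correlations follow. With each group mean removed they were 0.87, 0.69, 0.64, 0.56, 0.57 and 0.56. Leaving out 1 mouse lowered them at most to 0.81, 0.66, 0.62, 0.59, 0.47 and 0.36. On raw Ct the median over the 54 was 0.72.

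miR-2134 had the highest correlation but a small range. Its minus delta Ct was 0.62, 0.18, 0.76 and 0.80 in sham mice 1 to 4, while the injured mice had 0.46, 0.07, -0.13 and 0.32. It thus moved within 0.63 log2 units in sham, where miR-21 moved over 7.26, and its log2 difference was -0.41 ± 0.49 (SE; limma adjusted p = 0.626).

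miR-199a-3p and miR-214 are made from a shared transcript in fibroblasts and other mesenchymal cells, and miR-145 is a miRNA of smooth muscle and pericytes. The minus delta Ct of miR-199a-3p was -7.89, -11.53, -7.67 and -7.92 in sham mice 1 to 4, while the injured mice had -10.66, -11.83, -11.36 and -11.74. As with miR-21, sham mouse 2 lay among the ischemia/reperfusion mice. In this assay the other 3 sham mice stood together above all ischemia/reperfusion mice, whereas for miR-21 sham mouse 1 did not. miR-145 was at -8.43, -11.66, -9.65 and -8.81 in sham and at -11.85, -10.51, -11.94 and -12.62 after ischemia/reperfusion, again with only sham mouse 2 inside the other group's range. hsa-miR-214 was at -4.34, -7.85, -4.66 and -5.20 in sham and at -5.89, -6.99, -7.13 and -5.48 after ischemia/reperfusion. Sham mouse 2 was here the lowest of all 8. The seed of miR-199a-3p is shown for comparison, as the nearest mesenchymal companion, and it differs from that of miR-21.
mmu-miR-199a-3p: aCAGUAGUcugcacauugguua

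At the other end were mmu-miR-673 (-0.80), hsa-miR-378 (-0.66) and mmu-miR-29b# (-0.63), all on the card without miR-21. The minus delta Ct of miR-673 was 6.47, 7.15, -0.75 and -3.29 in sham mice 1 to 4, while the injured mice had 0.55, 0.92, 5.76 and 6.63. It was lowest in sham mice 3 and 4, where miR-21 was highest, and it spanned 10.4 log2 units in sham.

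**Figure D3:**
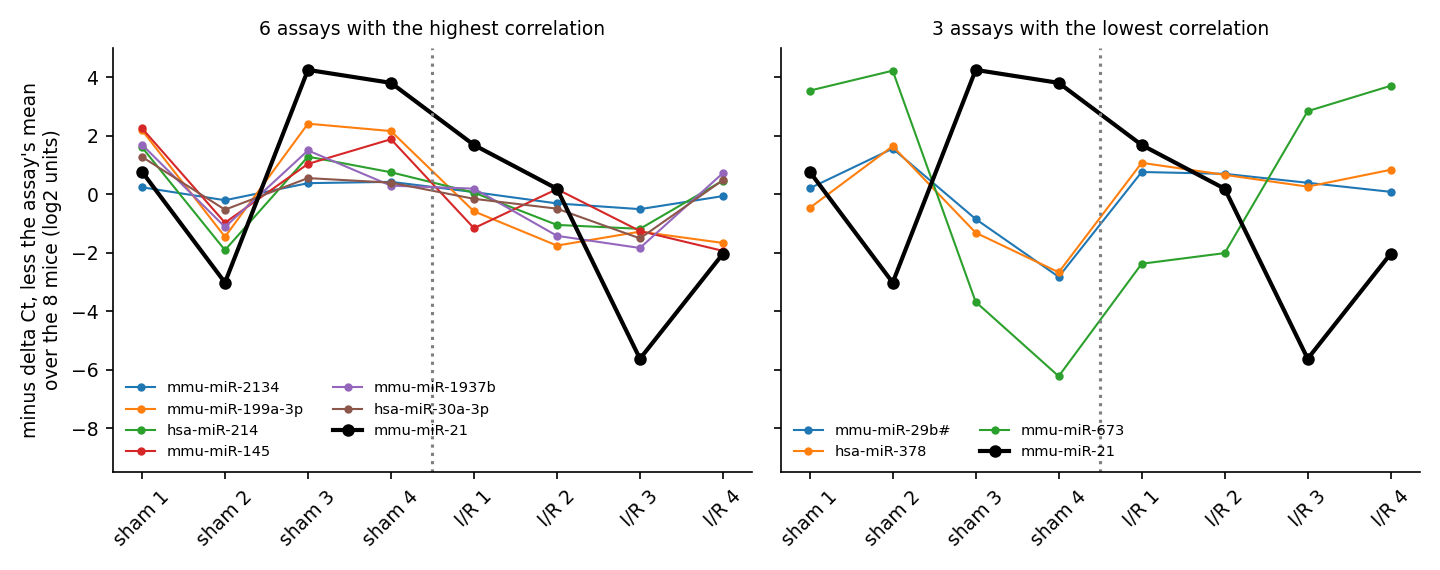
Minus delta Ct in log2 units, less each assay's mean over the 8 mice, for miR-21 (black) with the 6 most positively correlated assays (left) and the 3 most negatively correlated (right). Lines join values of an assay and imply no order of mice; in the left-hand assays, as in miR-21, sham mouse 2 is the lowest of its group, and their range is smaller.

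miR-21 was also set against single endothelial and mesenchymal marker assays of its card within each mouse, where the reference cancels. Against miR-199a-3p, the log2 level of miR-21 was -1.74, -1.88, 1.52 and 1.33 in sham mice 1 to 4, while the injured mice had 1.95, 1.62, -4.66 and -0.69. Both groups held mice above and below 0, and the difference of the means was -0.25 (exact two-sided permutation p = 1). Against miR-145 the difference was -0.80, against miR-222 -0.78, against miR-218 -1.004, against miR-152 -1.22 and against miR-126-3p -1.31. It was -1.96 against miR-92a and -3.004 against miR-126-5p, the partner arm of miR-126-3p. None of the 8 passed an exact permutation test (lowest p = 0.257, lowest adjusted p over the 8 markers 0.882). These sizes follow from the markers' own log2 differences in the fit. They were below 0 for 7 of the 8, from -2.65 for miR-199a-3p to -0.93 for miR-92a, and 0.11 for miR-126-5p, none past the adjusted threshold. Over all miRNAs of the fit, 49 of 72 (68.1%) were below 0. miR-199a-3p and miR-145 were also among the assays picked above for their likeness to miR-21. Whether the difference of miR-21 differed between the references was not tested.

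**Figure D4:**
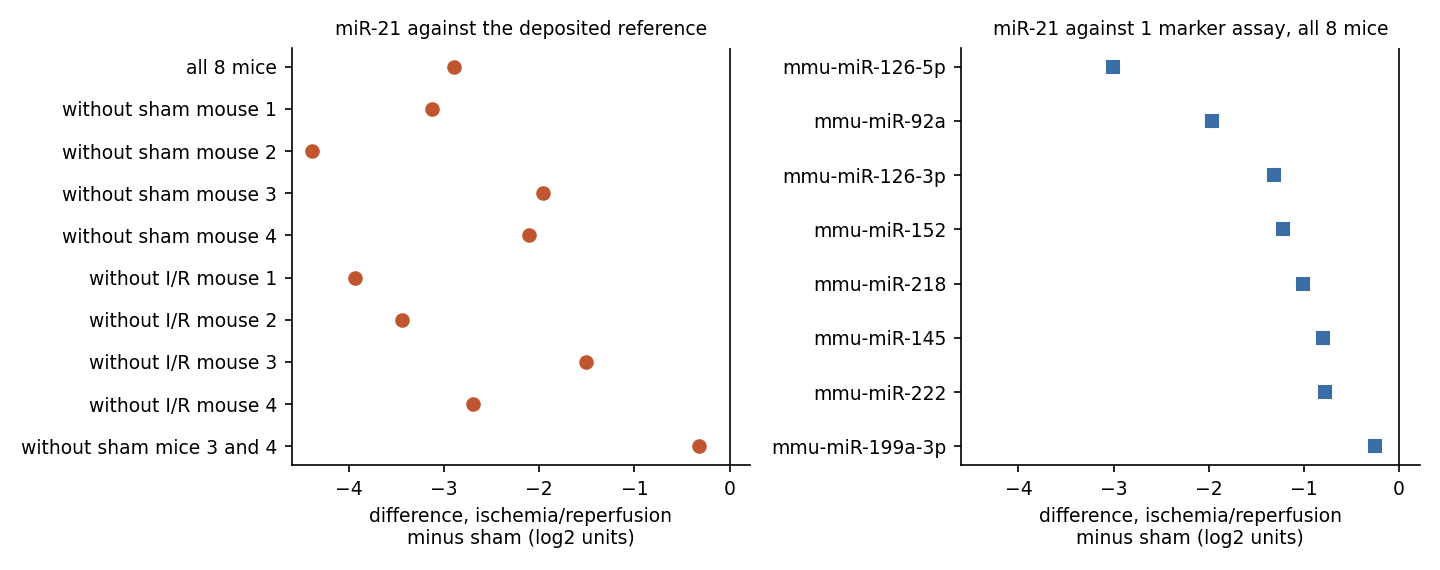
Difference of miR-21 in log2 units, ischemia/reperfusion minus sham, against the deposited reference with mice left out (left) and against single marker assays with all 8 mice (right). All values are below 0, from -4.39 to -0.32 on the left and from -3.004 to -0.25 on the right.

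miRNAs linked to kidney injury and fibrosis were drawn from a list of 30 names, all on the cards with 35 assays. Of these, 23 were detected in at least 1 mouse, beside 187 of all 750 miRNA assays, and 13 could be tested. In the fit, 0 of the 13 passed the adjusted threshold, 10 were lower and 3 higher, with a median log2 difference of -0.86 beside -0.80 over all 72 miRNAs and 68.1% of them lower, a share that depends on the reference as given above. Besides miR-21, those with the smallest p were miR-127, miR-126-3p, miR-199a-3p and the mmu-miR-214 assay. mmu-miR-214 had Ct values of 28.1, 25.6 and 24.7 in sham mice 1, 3 and 4, none in sham mouse 2, and 33.7, 31.3, 29.6 and 34.5 after ischemia/reperfusion. Like miR-21 it was lowest in Ct in sham mice 3 and 4, which also had the lowest reference Ct. Such a likeness in raw Ct was common, as 50 of 54 other miRNAs correlated with miR-21 above 0 on that scale. In minus delta Ct mmu-miR-214 was at -6.55 and -6.81 in these mice and at -7.49 in sham mouse 1. Ischemia/reperfusion mouse 3, the lowest mouse for miR-21, had the lowest Ct of its group in the mmu-miR-214 assay. In minus delta Ct it was at -9.10, just below mouse 2 at -8.97 and above mice 1 and 4 at -12.66 and -12.85. In the hsa-miR-214 assay, on the other card, it was at Ct 28.7, above mice 1 and 4 at 27.4. There it had the lowest minus delta Ct of its group, so the assays of miR-214 differed here. miR-127, of the imprinted Dlk1-Dio3 region, was at Ct 24.7, 24.8 and 22.2 in sham mice 1, 3 and 4, had none in sham mouse 2, and was at 27.1, 29.3, 28.2 and 26.9 after ischemia/reperfusion. Among inflammatory miRNAs of the list, miR-155 and 2 assays of miR-223 could be tested and miR-146a and miR-146b were too sparse. The latter were each detected in 3 sham mice and 1 ischemia/reperfusion mouse. In minus delta Ct, miR-146a was at -12.04, -12.15 and -11.58 in sham mice 1, 3 and 4 and at -13.71 in ischemia/reperfusion mouse 1. For miR-146b these values were -10.15, -11.08, -11.72 and -11.76. miR-155 was at Ct 28.8, 28.5, 26.6 and 25.1 in sham and 27.5, 28.8, 28.5 and 28.8 after ischemia/reperfusion, with a log2 difference of 0.23 ± 0.66 (SE; limma adjusted p = 0.818) that turned to -1.16 without normalization and -0.027 against the control RNAs. The assays of miR-223, a myeloid miRNA, had log2 differences of 0.63 ± 0.999 (mmu-miR-223) and 1.15 ± 1.13 (hsa-miR-223; SE, n = 4 per group). Without normalization they were at -0.76 and 0.13. miR-132, miR-34a and miR-192 had a Ct in sham mouse 4 alone. Other sparse members went the other way. miR-212 was detected in 0 sham mice and in 3 ischemia/reperfusion mice, at Ct 31.0, 31.0 and 30.0 in mice 1, 2 and 4. Its only sham value was Ct 35.4 in mouse 4. miR-29b was detected in 1 sham mouse and 2 ischemia/reperfusion mice.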

How the data were processed

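The members and lists were chosen with earlier results of these data known. A mirVana kit was used for RNA and a 7900HT Fast system for PCR, per the labels' protocols. The sources used here do not name the software, card type or reference RNA. The deposited values are Ct, delta Ct (a log2 scale) by the authors, equal to Ct minus 1 reference value per mouse and card within 7.11e-15 cycles, and a fold ratio, which the authors computed from mean delta Ct, per the file headers. In 13 wells delta Ct was given without a Ct, and these were treated as missing. Repeated wells were averaged. Minus delta Ct was fitted with limma 3.58.1 in R 4.3.3 (lmFit, eBayes, two-sided, Benjamini-Hochberg at 0.05) on all 72 miRNAs below Ct 35 in at least 3 mice of each group, others missing, and the fit was tested on simulated data. Single values were compared with exact permutation tests over 70 assignments. The naming rule took miR-21, its passenger strand and seed relatives, the 6 highest and 3 lowest correlations, 4 list members, the neighbours by difference, and detected markers. The tests over all 8 values, without sham mice 3 and 4, and against single markers were chosen after seeing the data, as were miR-155, miR-223 and the sparse list members named. The spread between mice sets the precision. Same-numbered mice did not deviate together over the 54 other miRNAs detected in all mice (r from -0.38 to 0.02).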

Additional observations from a re-analysis of the deposited data

Results flagged for a closer look

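For miR-199a-3p, the mesenchymal miRNA most like miR-21, sham mouse 2 stood apart from the rest of its group. Its minus delta Ct was -11.53, beside -7.89, -7.67 and -7.92 in the other sham mice, a gap of 0.934 of the group's range, above the 95% limit for 4 samples. Chance alone gives such a gap in about 1 in 20 groups, and 26 groups were examined. The miR-21 values themselves held no such gap.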

How the results depend on the processing

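The miR-21 log2 difference stayed below 0 and short of the adjusted threshold under every alternative that gave a value, from -5.49 without normalization to -2.01 without ischemia/reperfusion mouse 4 (-4.08 to -2.01 on leaving out single mice). Leaving out sham mouse 2 or ischemia/reperfusion mouse 3 could not change this difference, as both were already missing for miR-21 in the fit. With every Ct kept the difference was -2.90 (limma adjusted p = 0.587) and with Ct 35 in the undetected wells -2.73 (0.598). A replicate block on the mouse number gave -2.46 (limma adjusted p = 0.499), and the block changed no call. For miR-21 this value rested on mouse numbers 1 and 4, the only ones with a value in both groups. They went in opposite directions, from -9.63 in sham to -8.71 for number 1 and from -6.59 to -12.43 for number 4. A detection limit of Ct 32, or a test only of miRNAs detected in all mice, gave no value for miR-21. The raw Ct difference ranged from 2.81 to 6.59 cycles, and that over all 8 delta Ct values from -4.39 to -1.50, on leaving out single mice. The count of miRNAs past the threshold was 0 in the fit, 1 with every Ct kept (hsa-miR-421) and 0 to 1 when each mouse was left out (miR-1896 without sham mouse 1, miR-199a-3p without sham mouse 2); the cause was not tested. Of the injury list, 10 of 13 members were lower, 9 to 11 when each mouse was left out, and 6 of 9 with a limit of Ct 32, which tested fewer miRNAs. At Ct 35 or more a value rests on little RNA, which limits 2 of the 8 miR-21 values.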
